A study of Danio rerio with 18 samples.

Results

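The transcripts of 2 zebrafish genes, cdh5 (ENSDARG00000075549) and klf2b (ENSDARG00000040432), were followed through all 16 count tables of a study of the RNA mark N6-methyladenosine (m6A), out of 33737 gene identifiers per table. They were picked by symbol because their counts were low in endothelial cells of ythdf2 morphant embryos while other endothelial genes were higher there. That contrast therefore describes them and tests nothing.

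The gene cdh5 encodes VE-cadherin, the cadherin of the adherens junctions that hold endothelial cells together. Its extracellular part binds the same protein on the neighbouring cell, and its tail binds beta-catenin and p120-catenin. Krüppel-like factor 2 is a zinc finger transcription factor that endothelial cells switch on under the shear stress of flowing blood, downstream of a MEK5 and ERK5 kinase cascade and MEF2 factors. Zebrafish carry klf2a and klf2b as its paralogues. The mark m6A is written on messenger RNA by an enzyme complex around Mettl3, and the reader Ythdf2 binds transcripts that carry it and speeds their decay.

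All RNA came from the trunk of embryos at 28 hours post-fertilization (hpf), in pairs of libraries. Endothelial cells had been sequenced from ythdf2 morphants, mettl3 morphants and control embryos, a morphant being an embryo injected with a morpholino, an antisense oligomer that blocks translation or splicing of its target. Ythdf2 RIP libraries held RNA from embryos injected with mRNA for Flag-tagged ythdf2, and the m6A immunoprecipitates (IP) and their unselected inputs came from mettl3 morphants and controls. The morpholino sequences and type, what controls were injected with, the number of embryos pooled and the way endothelial cells were isolated are not stated in the labels. Nothing states that replicates came from separate clutches, so p-values measure the spread between these libraries, which may be technical.

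The m6A IP and input libraries held 32800475 to 78278767 gene counts, the RIP libraries 5273087 to 7901401 and the endothelial columns 3565193 to 4748921. The columns of each endothelial group differed by about sampling noise (chi-square per degree of freedom 1.04, 1.01 and 1.04 for ythdf2 morphant, mettl3 morphant and control columns, against 59.4 to 338 for the other pairs), so they were summed and counted as 1 pool per group. Levels are CPM, a gene's counts per 1000000 gene counts of its library. The transcripts targeted by the morpholinos were higher under their own labels: METTL3 stood at 140.0 CPM in the pool labelled mettl3 morphant against 19.5 CPM in the control pool (5.95-fold on scaled counts), and YTHDF2 at 26.0 CPM in the pool labelled ythdf2 morphant against 7.43 CPM in the control pool (3.07-fold). In the inputs METTL3 ran opposite ways, with 15.7 and 48.2 CPM in the libraries labelled mettl3 morphant and 35.8 and 19.6 CPM in the control libraries of the same numbers. These levels do not check the labels, which are used as given, and every direction below is that of the library so labelled.

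The junction gene cdh5 was scarce in the pool labelled ythdf2 morphant and at control level in the pool labelled mettl3 morphant. Its counts were 14 and 9 in the columns labelled ythdf2 morphant, 106 and 106 in those labelled mettl3 morphant, and 109 and 133 in the control columns. As levels these were 3.93 and 2.51 CPM under the ythdf2 label, 26.9 and 26.8 CPM under the mettl3 label, and 23.0 and 28.5 CPM in control. The columns labelled ythdf2 morphant lay far under all 4 others, and the columns labelled mettl3 morphant lay between the control columns. On scaled counts (edgeR's TMM factors) the pool labelled ythdf2 morphant was 9.11-fold under the control pool, a log2 ratio of −3.19 with a 95% exact interval from −3.87 to −2.57. The pool labelled mettl3 morphant had a log2 ratio to control of −0.20 (−0.48 to 0.07). These intervals cover counting error only, and with 1 pool per group there is no replicate check and no test.

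No read of klf2b was counted in either column labelled ythdf2 morphant. The columns labelled mettl3 morphant held 426 and 369 counts (108.2 and 93.3 CPM), and the control columns 389 and 367 (81.9 and 78.5 CPM). A count of 0 in 7151530 allows a level of up to 0.419 CPM. For a pool without counts, a floor of 3 counts was used in place of 0. On that floor klf2b was 218-fold lower in the pool labelled ythdf2 morphant than in the control pool, a log2 bound of −7.77. The upper limit of the exact interval for 0 counts was less extreme, at −7.47, so 218-fold is not a strict minimum. Columns compared singly gave bounds of −6.79 and −6.75. The pool labelled mettl3 morphant had a log2 ratio to control of 0.06 (−0.09 to 0.21) with TMM scaling and of 0.33 with total counts, which shift all ratios by 0.27 for the mettl3 label and 0.19 for the ythdf2 label.

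The paralogue klf2a was counted in every pool. It had 246 and 193 counts (69.0 and 53.8 CPM) in the columns labelled ythdf2 morphant, 516 and 544 (131.1 and 137.6 CPM) in the mettl3 morphant columns, and 294 and 304 (61.9 and 65.1 CPM) in the control columns. The ythdf2 and control labels overlapped, while both columns labelled mettl3 morphant stood above all others. Columns of a pool differed by about sampling noise, so this is no replicate check. The log2 ratio to control was −0.24 (−0.42 to −0.06) for the ythdf2 label and 0.81 (0.67 to 0.96) for the mettl3 label. The labels do not say how reads that match both paralogues were counted.

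**Figure D1:**
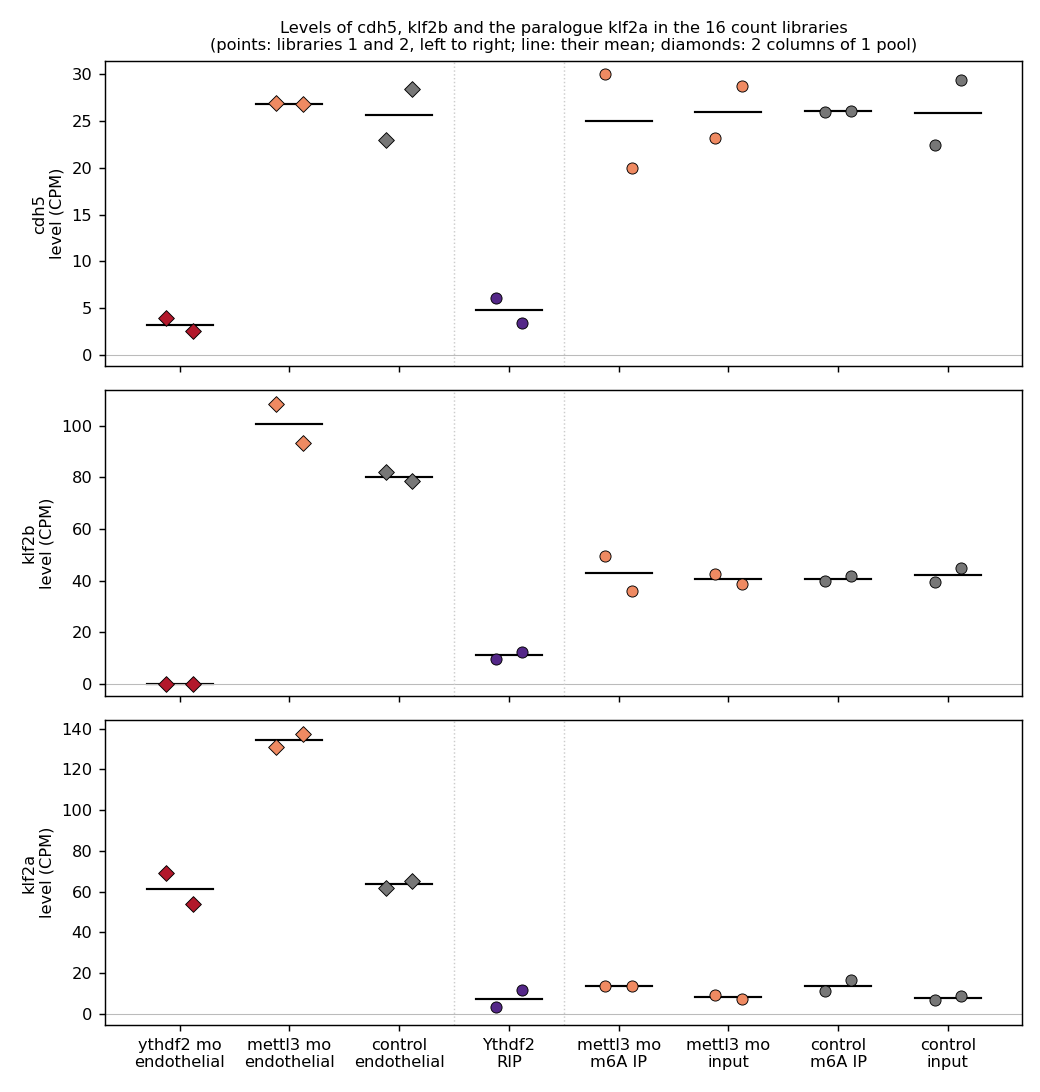
Level in CPM of cdh5, klf2b and klf2a (panels, top to bottom) in the 16 libraries, by group along the horizontal axis, with the mean of each pair as a line and diamonds for the columns of an endothelial pool. cdh5 stands at 3.93 and 2.51 CPM and klf2b at 0 in the columns labelled ythdf2 morphant, where klf2a stands at 69.0 and 53.8 CPM.

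The depth of these differences varied with how abundant a gene was. In the contrast of the ythdf2 label with control, 1688 of 13596 genes (12.4%) had a value lower than cdh5 and 8 (0.0588%) lower than klf2b. Every gene at 0 in the pool labelled ythdf2 morphant, klf2b included, was placed at a bound set by its control counts. The rank of klf2b is therefore not exact. Among genes with at least 100 and under 500 counts in the control pool, where cdh5 belongs with 242 counts, 571 of 5006 (11.4%) were at least 8-fold lower in the pool labelled ythdf2 morphant. Among genes with at least 500 counts in the control pool, where klf2b belongs with 756, 84 of 2526 (3.33%) were at least 8-fold lower. Of those 2526, 4 (0.158%) had no count in the pool labelled ythdf2 morphant: klf2b, the POU factor gene pou3f1, obsl1a and the pigment gene DCT. The pool labelled mettl3 morphant had 15 such zeros (0.594%), and klf2b was not among them. Of 2584 genes with at least 500 counts in the pool labelled mettl3 morphant, klf2b was the 1 gene at 0 in the pool labelled ythdf2 morphant. The rule chose both members for low counts under the ythdf2 label. Their places among all genes there describe them, and nothing is read from them.

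The control endothelial pool was set against the control trunk inputs to see how far the members marked it. The level of cdh5 was 25.7 CPM in the control pool against 22.4 and 29.4 CPM in the inputs, a ratio of 0.992. The pool value lay between the inputs. The level of klf2b was 80.2 CPM in the pool against 39.6 and 44.9 CPM in the inputs, 1.90-fold higher, and that of klf2a 63.5 CPM against 6.61 and 8.68 CPM, 8.31-fold higher.

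Most endothelial markers did stand out in that pool: 22 of 26 measured were at least 1.5-fold higher than in the inputs, with a median ratio of 8.72, where 19.9% of 22765 genes were that much higher and 59.4% that much lower. Among the most abundant of them, the scavenger receptor gene stab2 had a ratio of 8.71, the endothelial vesicle gene plvapb 27.6 and the adaptor gene she 9.72. The markers that did not were cdh5, the semaphorin and VEGF co-receptor gene nrp1b (1.2), the guidance receptor gene robo4 (0.238) and exoc3l2a, which had no count in the pool. Markers of other tissues were mixed in that pool. Of 7 epidermal markers 6 were at least 1.5-fold lower than in the inputs and 0 higher, with a median ratio of 0.0675. The 3 skeletal muscle markers summed to 8110 CPM against 5222 and 5669 CPM in the inputs. Their ratios were 1.53 for ckma, 1.45 for myhz2 and 0.311 for MYOD1. Of 6 neural markers 2 were at least 1.5-fold higher, NEUROD1 (8.63) and tubb5 (2.27), and 3 lower. Of 3 neural crest and pigment markers 0 were higher and 1 lower. The library types differ between pool and input and no test was made.

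**Figure D2:**
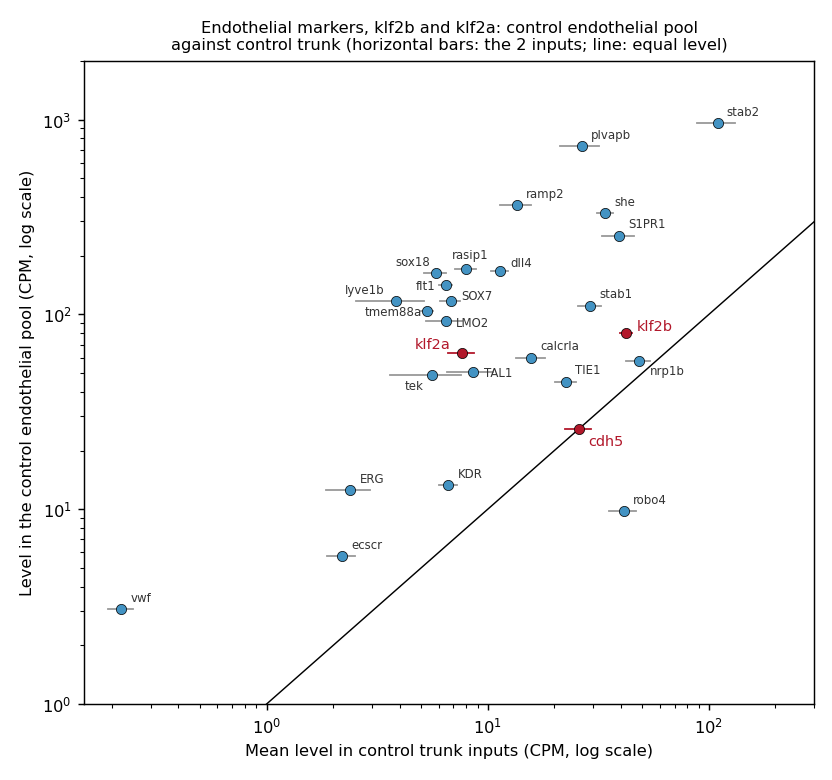
Level in the control endothelial pool (vertical, CPM, log scale) against the mean of the control trunk inputs (horizontal, CPM, log scale, bars joining the inputs) for the endothelial markers, klf2b and klf2a, with a line of equal level. cdh5 sits on the line at 25.7 CPM, klf2b 1.90-fold and klf2a 8.31-fold above it, and exoc3l2a, at 0 in the pool, is not drawn.

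Summed markers of cell types differed between the pools, also in the pool labelled mettl3 morphant, where the members stood near control, and their part in the results was not tested. The 9 measured markers of an endothelial list, none at 0 in any pool, summed to 2909 CPM in the pool labelled ythdf2 morphant, 2577 CPM in the pool labelled mettl3 morphant and 879 CPM in the control pool. The 3 measured skeletal muscle markers summed to 2219, 505 and 8110 CPM in that order of pools, and MYOD1 was at 0 in the pool labelled mettl3 morphant. In the same order 7 epidermal markers summed to 5235, 2386 and 2413 CPM, none at 0. Most of that was krt8, at 4461, 2076 and 1612 CPM. The median log2 ratio to control of the 7 was −0.43 for the ythdf2 label and −0.61 for the mettl3 label. Over all genes it was −0.18 and −0.15, so the sum does not speak for the list.

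The remaining lists were smaller. In the order ythdf2 label, mettl3 label and control, 6 neural markers summed to 393, 750 and 679 CPM with none at 0. Under the mettl3 label 3 of the 6 were at least 1.5-fold lower and 1 higher, GFAP (197 against 95.1 CPM). Among all genes 39.1% were lower and 29.4% higher. The median log2 ratio of the 6 was −0.43, so the sum does not speak for the list. In the same order 4 neural crest and pigment markers summed to 19.0, 9.76 and 171 CPM. Of these, FOXD3 was at 0 in every pool, DCT in the pool labelled ythdf2 morphant and pmela in the pool labelled mettl3 morphant. In the same order 5 erythroid markers summed to 14.1, 32.6 and 129 CPM, with EPOR at 0 in every pool and gata1a in that labelled mettl3 morphant. The sums of 4 myeloid markers were 73.0, 66.8 and 31.9 CPM in the same order, with ptprc and lyz at 0 in the pool labelled mettl3 morphant. Most of that was LCP1, at 50.9, 53.1 and 17.6 CPM. In such samples fewer cells of a type and less RNA per cell cannot be told apart.

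Per 1000 counts of the 9 endothelial markers, cdh5 had 1.11 counts in the pool labelled ythdf2 morphant, 10.4 in that labelled mettl3 morphant and 29.2 in the control pool. The trunk inputs gave 264 and 281 labelled mettl3 morphant and 274 and 285 in control. For klf2b the ratios were 0 labelled ythdf2 morphant, 39.1 labelled mettl3 morphant and 91.3 in the control pool, and for klf2a 21.1, 52.1 and 72.2 in the same order. The marker sum was higher in both pools labelled morphant than in the control pool, and the members were chosen for running against such markers under the ythdf2 label, so lower ratios follow from the choice and nothing is read from them. With the marker sum as scaling, an alternative chosen after seeing the data, the log2 ratio of cdh5 to control was −4.73 for the ythdf2 label and −1.49 for the mettl3 label, and that of klf2b was −1.22 for the mettl3 label. That of klf2a was −1.78 for the ythdf2 label and −0.47 for the mettl3 label, where its sign was reversed.

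Most other endothelial markers were higher in both pools labelled morphant than in the control pool. In the pool labelled ythdf2 morphant 19 of 25 kept markers were at least 1.5-fold higher and 2 lower, with a median log2 ratio of 1.45. Among all 13596 genes 30.6% were that much higher and 39.9% that much lower, with a median of −0.18. Both contrasts share the control pool. The mettl3 label had 20 of 25 markers higher and 1 lower, with a median of 1.03, against 29.4% of 13492 genes higher and 39.1% lower, with a median of −0.15. The rule used the first contrast, so nothing is read from its counts.

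Of the 5 most abundant markers, stab2 had log2 ratios to control of 1.21 for the ythdf2 label and 0.84 for the mettl3 label, plvapb 0.85 and 1.39, and the adrenomedullin receptor subunit gene ramp2 0.77 and 1.02. The gene she had 1.59 for the ythdf2 label and 0.92 for the mettl3 label, and the sphingosine-1-phosphate receptor gene S1PR1 0.18 and 1.15. The marker lower beside cdh5 was the VEGF receptor gene KDR, with 26 counts in the pool labelled ythdf2 morphant, 96 in that labelled mettl3 morphant and 125 in the control pool. Its log2 ratio was −2.06 (−2.73 to −1.44) for the ythdf2 label and −0.39 (−0.79 to 0.00) for the mettl3 label. The marker lower under the mettl3 label was vwf, the gene of von Willebrand factor, with 0 counts against 29 in the control pool.

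**Figure D3:**
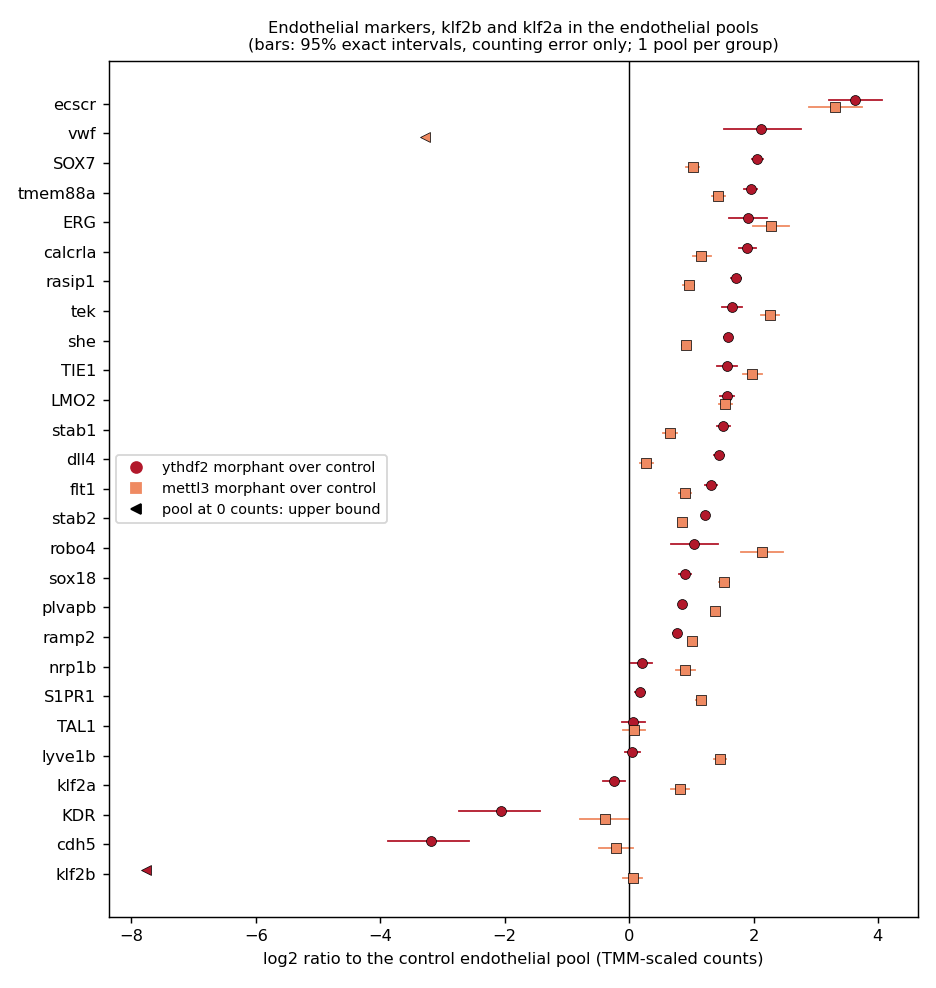
Log2 ratio to the control endothelial pool on TMM-scaled counts (horizontal) for the endothelial markers, klf2b and klf2a (rows), with circles for the ythdf2 label, squares for the mettl3 label and bars for 95% exact intervals of counting error. cdh5 at −3.19, KDR at −2.06 and the bound of klf2b at −7.77 stand left of the other circles, and the bound of vwf at −3.29 left of the other squares. Bounds are set by the floor of 3 counts.

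Genes of the junction list were split. Of 63 listed, 33 matched a measured gene and 25 were kept. Counting cdh5 itself, 9 were at least 1.5-fold lower and 10 higher in the pool labelled ythdf2 morphant, with a median log2 ratio of 0.14. The mettl3 label gave 9 lower and 10 higher, with a median of 0.03. These shares of 36% and 40% stand beside 39.9% and 30.6% of all genes for the ythdf2 label and 39.1% and 29.4% for the mettl3 label. Among those lower under the mettl3 label, ctnnb2 had 2 counts against 16 in the control pool. It was kept only through its 77 counts in the pool labelled ythdf2 morphant. Among partners of VE-cadherin, the beta-catenin gene CTNNB1 had log2 ratios of 0.14 for the ythdf2 label and −0.35 for the mettl3 label. The p120-catenin gene CTNND1 had 1.26 and 0.77, and ptprb, the gene of the phosphatase VE-PTP, 0.13 and 0.13. CTNND1 and ptprb were named for their role after their values were seen. The ythdf2 contrast chose cdh5, so nothing is read from these values about partners as a set. Junction genes lower under that label are named below.

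Among the most abundant junction genes, rasip1, which acts with Rap1 in vessel lumen formation, had log2 ratios of 1.72 for the ythdf2 label and 0.96 for the mettl3 label. The small GTPase genes rhoaa, rap1aa and rhoca had 0.16, 0.14 and 1.66 for the ythdf2 label and 0.54, 0.03 and 1.03 for the mettl3 label. The junction genes lower under the ythdf2 label were cdh5, CDH2, ACTN1, ZYX, cldn1, f11r.1, jam2b, oclna and tjp1b. Of these the tight junction gene tjp1b had −0.81 for the ythdf2 label and 0.81 for the mettl3 label, and the adhesion molecule gene jam2b was at 0 in the pool labelled ythdf2 morphant against 316 counts in the control pool.

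Of 66 listed flow response genes 36 matched a measured gene by symbol and 27 were kept. Counting klf2b and cdh5 themselves, the ythdf2 label had 10 at least 1.5-fold lower (37%) and 8 higher (29.6%), with a median log2 ratio of 0.06. These shares are near the 39.9% and 30.6% of all genes. The mettl3 label had 8 lower (29.6%) and 12 higher (44.4%), with a median of 0.15, against 39.1% and 29.4% of all genes. For the most abundant, the log2 ratio of the immediate early gene egr1 was −2.83 for the ythdf2 label and −0.998 for the mettl3 label, and that of DUSP5, a phosphatase acting on ERK, was 0.28 and 1.02. ID1, a target of BMP signalling, had −0.55 for the ythdf2 label and 0.21 for the mettl3 label, and the chemokine gene cxcl12b −1.14 and 0.74. The flow genes lower under the ythdf2 label were klf2b, cdh5, egr1, ID3, SMAD7, cxcl12b, MAP2K5, MAP3K3, WNT9B and pkd1a. Of the kinase cascade above Klf2, MAP2K5, the MEK5 gene, had −0.72 for the ythdf2 label and 0.62 for the mettl3 label. MAPK7, the ERK5 gene, had −0.41 and −4.74, the latter on 4 counts against 106 in the control pool. The kinase gene MAP3K3 had −0.65 and −0.76, and the MEF2 factor gene MEF2D 0.06 and −0.20. Their values were seen before they were named.

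Of 24 listed Klf genes 12 matched a measured gene by symbol. Of these 5 were kept for the ythdf2 label and 6 for the mettl3 label, since most had few counts. Counting klf2b, which the rule chose, the 3 lower under the ythdf2 label (60%) were klf2b, klf5l and KLF8, all at 0 in that pool. Of the kept genes 0 were higher, where 39.9% of all genes were lower and 30.6% higher. Nothing is read from so few genes. The control pool held 54 counts of klf5l and 34 of KLF8. Only the control pool had at least 20 counts of klf5l, which favours a lower value. The kept genes that were not lower were klf2a and KLF3, and KLF3 had log2 ratios of 0.08 for the ythdf2 label and −0.92 for the mettl3 label. Under the mettl3 label 2 of 6 were lower and 2 higher, 33.3% each, near the 39.1% and 29.4% of all genes. Of the higher ones, klf17 rested on 32 counts against 2 in the control pool, a log2 ratio of 3.99 (2.02 to 7.09).

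Most kept cadherin genes were lower under both labels. Of 22 listed, 14 matched a measured gene by symbol. Counting cdh5 itself, 7 of 9 kept genes were at least 1.5-fold lower and 1 higher under the ythdf2 label, where 39.9% of all genes were lower and 30.6% higher, with a median log2 ratio of −3.42. Under the mettl3 label 7 of 8 were lower and 0 higher, where 39.1% of all genes were lower and 29.4% higher, with a median of −1.37. The higher gene was cdh18a, with 41 counts in the pool labelled ythdf2 morphant and 0 in the control pool, named after its values were seen. The log2 ratio of cdh6 was −3.99 for the ythdf2 label and −1.20 for the mettl3 label, that of CDH2, the N-cadherin gene, −1.43 and −1.23, and that of CDH11 0.16 and −1.51. CDH17 had 2 counts labelled ythdf2 morphant, 0 labelled mettl3 morphant and 247 in the control pool. Only the control pool had enough counts of CDH13, CDH15, CDH17 and cdh4 for them to be kept, which favours a lower value. Nothing is therefore read from the shares of lower genes in this family. Within this family cdh5 was the kept gene that was lower under the ythdf2 label and not under the mettl3 label. The rule chose cdh5 for its low value under the ythdf2 label, and cdh4 was lower under the mettl3 label on few counts. Nothing is therefore read from this difference. Both CDH2 and cdh5 are also in the junction list. The summed muscle and pigment markers were lower than in the control pool in the same pools, as given above, and their part was not tested.

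In the unselected trunk RNA no difference between the labels was detected for either member. The input levels of cdh5 were 23.2 and 28.7 CPM labelled mettl3 morphant and 22.4 and 29.4 CPM in control, with means of 26.0 ± 3.91 and 25.9 ± 4.90 CPM (SD, n = 2 each). Those of klf2b were 42.4 and 38.7 CPM labelled mettl3 morphant and 39.6 and 44.9 CPM in control, with means of 40.6 ± 2.65 and 42.2 ± 3.75 CPM (SD, n = 2 each). The groups overlapped for both genes. In edgeR's quasi-likelihood test the log2 ratio of cdh5 was 0.00 (SE 0.12) and that of klf2b −0.05 (SE 0.17), each with a Benjamini-Hochberg adjusted p of 0.9999. The paralogue klf2a had 9.02 and 7.30 CPM labelled mettl3 morphant and 6.61 and 8.68 CPM in control, a log2 ratio of 0.12 (SE 0.23, edgeR adjusted p = 0.9999).

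The same test called 0 of 22561 genes (0%), with 290 at an unadjusted p below 0.05, and DESeq2 called 1, so no gene of the lists passed it either. Ythdf2 morphant trunk is not among the samples analysed here, so the low levels under that label have no counterpart in unselected RNA.

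No enrichment of either member in the m6A pulldown was detected. In embryos labelled mettl3 morphant cdh5 had 30.1 and 19.98 CPM in the IP and 23.2 and 28.7 CPM in the input, and in control embryos 25.987 and 26.103 CPM in the IP and 22.4 and 29.4 CPM in the input. For klf2b the levels labelled mettl3 morphant were 49.6 and 36.1 CPM in the IP and 42.4 and 38.7 CPM in the input, and those in control 39.9 and 41.6 CPM in the IP and 39.6 and 44.9 CPM in the input. IP and input overlapped in each of these comparisons.

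For cdh5 the log2 ratio of IP over input was −0.09 (SE 0.24, edgeR adjusted p = 0.806) labelled mettl3 morphant and −0.08 (SE 0.24, adjusted p = 0.823) in control. For klf2b it was 0.02 (SE 0.23, edgeR adjusted p = 0.964) labelled mettl3 morphant and −0.15 (SE 0.23, adjusted p = 0.653) in control. The values are per gene and relative to all genes, so a mark on a small stretch of a transcript need not show. Of 23163 genes, edgeR called 3027 (13.1%) higher in IP and 3059 (13.2%) lower labelled mettl3 morphant, and 3166 (13.7%) higher and 3389 (14.6%) lower in control. With total counts as scaling the control split was 1533 higher and 882 lower.

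The paralogue klf2a was higher in the IP than in the input, with a call in control embryos. It had 13.4 and 13.6 CPM in the IP against 9.02 and 7.30 CPM in the input of embryos labelled mettl3 morphant, and 11.2 and 16.4 CPM in the IP against 6.61 and 8.68 CPM in the input of control embryos. IP and input did not overlap under either label. Labelled mettl3 morphant the log2 ratio was 0.65 (SE 0.22, edgeR adjusted p = 0.0567), and with the replicate number as a block 0.65 (adjusted p = 0.0429). Over its alternatives that adjusted p ran from 0.0260, without mettl3 morphant input replicate 1 (log2 ratio 0.98), to 0.249, without replicate 2 (0.39). In control the log2 ratio was 0.74 (SE 0.21, edgeR adjusted p = 0.0345). Leaving out any 1 of the 4 control libraries ended that call, with adjusted p between 0.0617 and 0.165 and log2 ratios of 0.64 to 0.86, as did total counts as scaling (adjusted p = 0.0657).

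The difference between klf2a and the members was not tested. Of 12 Klf genes, 5 passed edgeR's test as higher in IP labelled mettl3 morphant (13.1% of all genes did) and 6 in control (13.7% of all genes), and 0 as lower, with median log2 ratios of 0.52 and 0.51 against −0.02 and −0.03 over all genes. The zinc finger factor genes klf5l, KLF8, KLF9, klf13 and klf17 passed under both labels and klf2a in control. Their log2 ratios in control ran from 0.56 for klf5l to 1.38 for KLF9.

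The other lists are read against the 13.7% of all genes called higher and 14.6% called lower in the control IP. Among 35 tested flow genes 5 were higher, klf2a, MAPK7, edn1, thbd and DUSP5, and MAP2K5 was lower. MAPK7 had a log2 ratio of 1.09 (SE 0.15) and MAP2K5 −0.86 (SE 0.16). Of 33 junction genes 2 were higher, tjp1b and CGNL1, and 6 lower, CTNNB1, ctnnb2, CTNND1, f11r.1, cldn1 and rap1ab. CTNNB1 had a log2 ratio of −0.91 (SE 0.19). Of 26 endothelial markers SOX7 and dll4 were higher and stab1, ramp2 and calcrla lower, and of 14 cadherins cdh6 was higher.

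No change of m6A enrichment with the label was detected for either member. The difference of log2 IP over input, mettl3 morphant minus control, was −0.01 (SE 0.34) for cdh5, 0.17 (SE 0.33) for klf2b and −0.09 (SE 0.30) for klf2a. The edgeR interaction test called 0 of 23163 genes (0%) with 84 at an unadjusted p below 0.05, and DESeq2 called 1. None of the listed genes passed in edgeR. Replicate number and read length go together in these libraries, 151 bp in replicate 1 and 101 bp in replicate 2.

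Within a number, log2 IP over input of cdh5 labelled mettl3 morphant was 0.37 in replicate 1 and −0.52 in replicate 2, and in control 0.21 in replicate 1 and −0.17 in replicate 2. Its sign therefore depended on the replicate under both labels. For klf2b the values labelled mettl3 morphant were 0.23 and −0.10, and in control 0.01 and −0.11. For klf2a all 4 were positive, 0.57 and 0.90 labelled mettl3 morphant and 0.76 and 0.92 in control. For the inputs, mettl3 label over control, cdh5 had 0.05 and −0.03 and klf2b 0.10 and −0.22.

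In the RNA bound by Flag-tagged Ythdf2 both members had a lower CPM than in the control inputs, as most genes did. No input of the injected embryos and no mock RIP is among the samples. Binding, background and a different RNA level in those embryos therefore cannot be told apart. The injected gene itself, YTHDF2, had 44.2 and 116.6 CPM in RIP against 26.6 and 37.2 CPM in the control inputs. The RIP libraries had 48 and 18 counts of cdh5 (6.08 and 3.41 CPM), against 22.4 and 29.4 CPM in the control inputs. They had 77 and 66 counts of klf2b (9.75 and 12.5 CPM), against 39.6 and 44.9 CPM in the inputs. Both genes had a lower CPM in each RIP library than in each input. Most genes also had a lower CPM in RIP: the median log2 ratio was −1.76 over 12256 genes for replicate 1 and −1.61 over 9801 genes for replicate 2. These genes passed a count minimum in the m6A IP and input libraries and in that RIP library, so genes scarce in RIP are left out.

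Relative to all genes, with TMM scaling, cdh5 had a log2 ratio of RIP over input of −0.48 (SE 0.45, edgeR adjusted p = 0.468) and klf2b −0.01 (SE 0.42, adjusted p = 0.989). Of 21005 genes edgeR called 1502 (7.15%) higher in RIP and 1378 (6.56%) lower. Total counts as scaling put the median of all genes at −2.11 where TMM put it at −0.19, gave 407 genes higher and 14315 lower, and made cdh5 −2.43 (adjusted p = 0.000273) and klf2b −1.93 (adjusted p = 0.00345). Over the alternatives the adjusted p ran from 0.000273 to 0.945 for cdh5 and from 0.00345 to 0.992 for klf2b.

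The paralogue klf2a had 3.04 and 11.8 CPM in RIP against 6.61 and 8.68 CPM in the inputs, so the groups overlapped. Its log2 ratio was 1.82 (SE 0.58, edgeR adjusted p = 0.0698) with TMM and −0.082 with total counts, and its adjusted p ran from 0.000163 to 0.887 over the alternatives. Without RIP replicate 1 edgeR's log2 ratio was 2.36 (adjusted p = 0.000163) for klf2a and −1.19 (adjusted p = 0.00733) for cdh5, with the lone RIP library assumed to vary like the control inputs. Centred on the medians of the 12256 and 9801 genes that passed a count minimum, the log2 ratios by number were −0.13 and −1.50 for cdh5. They were −0.26 and −0.23 for klf2b and 0.64 and 2.05 for klf2a. RIP and control input libraries of the same number did not deviate together (correlation −0.04), so the number is no pairing here. In replicate 1 a RIP library of 101 bp was set against an input of 151 bp.

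Listed genes that passed in RIP are read against 7.15% of all genes higher and 6.56% lower. Of 12 Klf genes 1 passed, KLF4, with a log2 ratio of 1.66 (SE 0.44, edgeR adjusted p = 0.0471). The flow genes were KLF4, MAPK7, pkd1a, WNT9B, thbd and egr1, 6 of 35 higher and 0 lower. Of 13 cadherins cdh4, cdh6, cdh10a and cdh18a were higher, of 31 junction genes tjp1b was higher and f11r.1 lower, and of 26 markers SOX7 was higher.

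**Figure D4:**
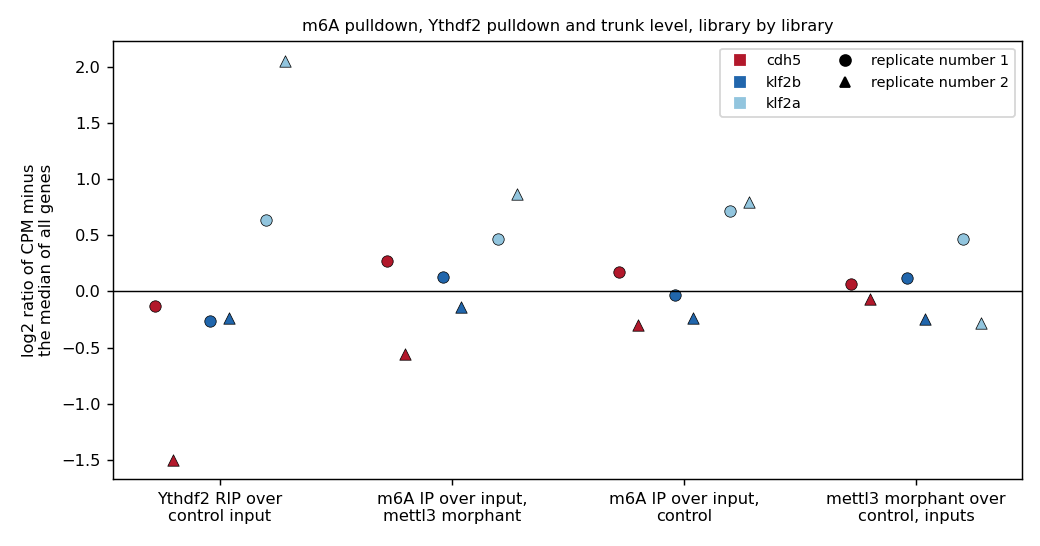
Log2 ratio of CPM minus a median over genes (vertical) for cdh5, klf2b and klf2a in 4 comparisons (horizontal), with circles for replicate number 1 and triangles for number 2. The median, labelled as that of all genes, is over genes that passed a count minimum in the m6A IP and input libraries and, for RIP, in the RIP library. klf2a lies above 0 in both replicates of each pulldown, at 0.64 and 2.05 in RIP, while cdh5 changes sign between replicates of the m6A IP. For RIP the replicate number is no pairing with the inputs (correlation of deviations −0.04).

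Across all groups the order of levels was as follows, on scales that differ between library types. For cdh5 the pool labelled ythdf2 morphant (2.51 to 3.93 CPM) and RIP (3.41 to 6.08 CPM) overlapped at the low end, and the libraries of the other 6 groups lay together from 19.98 to 30.1 CPM. For klf2b the order was the pool labelled ythdf2 morphant at 0, RIP at 9.75 to 12.5 CPM, the 8 m6A and input libraries between 36.1 and 49.6 CPM with overlapping groups, the control pool at 78.5 to 81.9 CPM and the pool labelled mettl3 morphant at 93.3 to 108.2 CPM. Neighbours among these 5 levels did not overlap, although the columns of a pool differed by about counting noise and are no replicate check. For klf2a RIP (3.04 to 11.8 CPM) overlapped the inputs and the control IP, and all 3 pools stood higher, from 53.8 to 137.6 CPM.

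The genes whose pattern was most like that of cdh5, by Pearson correlation of log2(CPM + 1) over 13 samples among 11615 genes with a symbol, were csf1b (r = 0.985), nampt2 (0.981), si:dkey-117n7.5 (0.980), TRUB1 (0.979) and TBC1D15 (0.979). They had 0 to 1.82 CPM in the pool labelled ythdf2 morphant, and 7.22 to 25.4 CPM in the control pool. For klf2b they were MYSM1 (0.983), the zinc finger factor gene SP8 (0.979), arhgap36 (0.977), si:dkey-6n6.1 (0.976) and hunk (0.963), with 0 to 0.559 CPM labelled ythdf2 morphant and 6.90 to 66.8 CPM in the control pool. No endothelial marker was among these 10. The correlation picks genes that are low where the members are low, so their low levels in the pool labelled ythdf2 morphant follow from the choice. The absence of markers that were higher in that pool follows from the choice of the members, so nothing is read from it. The samples share assays and depths.

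In RefSeq's GRCz12tu annotation, used for names and neighbours alone, a long non-coding RNA overlaps cdh5, and the nearest coding gene is bean1. The nearest coding gene is eps15l1b for klf2b and eps15l1a for klf2a, genes whose names mark them as paralogues of each other. The strand setting of the counting is unstated, so reads of cdh5 and of the overlapping RNA cannot be told apart.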

How the data were processed

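The authors deposited raw counts per gene, whole numbers in 16 tables, with TopHat2 2.0.9 as aligner listed beside HTSeq 0.5.3p9 per the submitters' processing notes. Genome build, annotation release and strand setting of the counting are unstated. Reads outside annotated genes made up 9.07% to 13.5% in m6A libraries, 9.49% to 10.5% in endothelial columns and 42.9% to 43.8% in RIP libraries, and stayed out of library sizes. The deposited peak, region and site lists were not used here, since no annotation of their build was at hand. Symbols matched 21939 of 33737 identifiers. A listed gene whose symbol matched no identifier, or more than 1, was left out and may still have been counted. By this matching 26 of 44 listed endothelial markers were found, and 9 of 18 in the shorter endothelial list of cell type markers. The 18 samples form 9 groups by their titles.

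Members and gene lists were chosen with earlier results of these data known. From lists, the 5 genes with most counts in the control pool are named, with exceptions. Counts were fitted with edgeR 4.0.16 in R 4.3.3 (quasi-likelihood test, TMM, filterByExpr, Benjamini-Hochberg adjusted p over all genes, threshold 0.05) and with DESeq2 1.42.0 as an alternative, and the procedure was tested on simulated data. Inputs were 1 fit of 4 libraries, IP and input 1 fit of 8, RIP and control inputs 1 fit of 4. Endothelial columns were summed. Genes with at least 20 counts in any of the endothelial pools were kept, so a gene can enter a contrast through the pool outside it. A gene kept through the control pool alone is favoured to be lower. Genes with no more than 3 counts in both pools of a contrast were left out of that contrast. Ratios have 95% exact (Clopper-Pearson) intervals that cover counting error only. A pool at 0 is set to a floor of 3 counts. Of the chi-square tests of the columns, p was 0.00402 for the ythdf2 label, 0.173 for the mettl3 label and 0.00162 for control, and no gene was at 0 in 1 column with 20 or more in the other. Same-numbered libraries of the m6A groups deviated together (correlations 0.35 to 0.61 over 15896 genes) and share a read length, so the number was tried as a block. For RIP and control inputs the correlation was −0.04.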

Additional observations from a re-analysis of the deposited data

How the results depend on the processing

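Neither member passed the threshold in the edgeR and DESeq2 fits of any comparison, 63 each with alternatives, except cdh5 in 2 and klf2b in 1, all of RIP. Total-count scaling gave log2 RIP over input of −2.43 for cdh5, −1.93 for klf2b and −0.082 for klf2a, and leaving out single libraries −1.19 to −0.16 for cdh5, −0.19 to 0.20 for klf2b and 0.60 to 2.36 for klf2a. For klf2b the ratio was 0.081 with DESeq2's size factors in edgeR, 0.079 in DESeq2 and 0.068 over inputs labelled mettl3 morphant. Values near 0 changed sign elsewhere: cdh5 was −0.004 in the inputs and 0.015 in the change of enrichment without a filter, and 0.008 for the control IP with total counts.

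Leaving out single libraries gave the following lowest and highest log2 ratios. In the inputs they were −0.069 and 0.071 for cdh5, −0.28 and 0.15 for klf2b and −0.21 and 0.39 for klf2a. For IP over input labelled mettl3 morphant they were −0.53 and 0.28 for cdh5, −0.35 and 0.34 for klf2b and 0.39 and 0.98 for klf2a, and in control −0.23 and 0.10, −0.27 and 0.004, and 0.64 and 0.86. For the change of enrichment they were −0.45 and 0.34, −0.20 and 0.47, and −0.37 and 0.24. Single columns gave −3.70 and −2.74 for cdh5 and bounds of −6.79 and −6.75 for klf2b under the ythdf2 label, where halved counts move the bound, and −0.47 and −0.03 for klf2a.

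With the replicate number as a block the log2 ratios of cdh5, klf2b and klf2a were 0.00, −0.06 and 0.09 in the inputs, −0.12, 0.00 and 0.65 for IP over input labelled mettl3 morphant, −0.10, −0.16 and 0.74 in control, −0.03, 0.17 and −0.09 for the change and −0.55, −0.01 and 1.61 for RIP. The block changed the call of klf2a labelled mettl3 morphant and no other call of these genes.

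Under the ythdf2 label cdh5 was −4.73 and klf2a −1.78 when scaled to endothelial markers. Under the mettl3 label that scaling gave −1.49 for cdh5, −1.22 for klf2b and −0.47 for klf2a, and total counts gave 0.33 for klf2b. For klf2b in the control pool over the inputs, scaling with TMM gave a log2 ratio of 1.095, against 0.925 on CPM. With at least 100 counts required, members lower under the mettl3 label numbered 5 junction, 5 flow, 1 Klf and 4 cadherin genes, and under the ythdf2 label 1 Klf and 4 cadherin genes. At 2-fold 5 flow and 1 Klf gene were lower under the mettl3 label. The share of all genes lower was not counted at these settings, so nothing is read from these counts. The causes were not tested.

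Counts over all genes moved more. Total counts called 1533 higher and 882 lower for the control IP, 930 and 797 for the IP labelled mettl3 morphant, and 19 and 7 in the inputs, where the block called 2 and 3. In RIP, DESeq2 called 2957 and 2281, no filter 2249 and 3600, and leaving out control input replicate 1 or 2 gave 284 and 64 or 237 and 50, RIP replicate 1 or 2 gave 4470 and 6796 or 3021 and 3831. Leaving out a library called 906 to 3381 higher for the control IP and 1383 to 2800 for that labelled mettl3 morphant. The depth of the endothelial columns limits what a ratio can show for genes under 100 counts.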
